A study of Homo sapiens with 6 samples.

Results

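The integrin and laminin genes were compared between HaCaT keratinocytes with less EIF4E and control cells, both stimulated with M5. The members were all rows of the gene table whose symbol names an integrin α subunit (ITGA with a number or letter code, where ITGA2B does not match), an integrin β subunit (ITGB1 to ITGB8) or a laminin chain (LAMA, LAMB or LAMC with a number from 1 to 5). This rule took 35 of 29176 genes and used no measured value. The 34 described here are 16 integrin α, 8 integrin β and 10 laminin genes. HaCaT is an established, spontaneously immortalised human keratinocyte line, and M5 is the stimulus with which the series sets up a culture model of psoriasis, of components that are not listed in the labels. In the si-eIF4E+M5 group (3 libraries) the cells had received a small interfering RNA against EIF4E, the cap-binding factor of translation initiation. In the si-NC+M5 group (3 libraries) they had received the control small interfering RNA. Total RNA was taken at 48 hours. Both groups share the line and the stimulus, and no unstimulated or untransfected sample was analysed here. Nothing in the labels says whether the replicates were separate cultures. The p-values therefore cover the spread among these 6 libraries, and that spread may be technical.

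Integrins are receptors of one α and one β subunit that span the membrane and tie the cytoskeleton to the matrix outside the cell. Laminins are secreted trimers of one α, one β and one γ chain that build the basement membrane on which basal keratinocytes sit. In skin, integrin α6β4 and laminin-332 meet in the hemidesmosome, α3β1 binds the same laminin outside it, α2β1 binds collagen, and the αV integrins bind ligands with the RGD motif, including the latent form of TGF-β.

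In the si-eIF4E+M5 libraries 8 of the 29 tested members were called, that is, had a Benjamini-Hochberg adjusted p under 0.05 over all genes in the quasi-likelihood test of edgeR. ITGB6 and ITGAV rose, and ITGA2, ITGA3, ITGA6, ITGB5, LAMA3 and LAMB1 fell. The background in the same fit was 15.8% of 18022 tested genes called, 7.44% higher and 8.4% lower, so the members' share of 27.6% lay above it. Among the members that averaged at least 5 FPKM (fragments scaled by the authors to gene length and library size) in either group, 8 of 15 were called, where 26.2% of all such genes were. Of the 29 tested members, 9 had no overlap between the 3 and 3 libraries, 2 higher and 7 lower, which is close to the 33.8% of all tested genes with no overlap. The members' median log2 fold change was -0.03 and that of all tested genes -0.01, and the median absolute change was 0.25 against 0.20. A change of at least 1.5-fold was called for 2 members, ITGB6 and ITGA6, and for 4.7% of all tested genes. The count of called members was 4 without si-eIF4E+M5 library 1 and 4 without si-NC+M5 library 2, and 7 without other single libraries except for 6 without si-eIF4E+M5 library 3. Calls over all genes dropped in these fits too. They were 2029 of 18617 without si-eIF4E+M5 library 1 and 1598 of 18707 without si-NC+M5 library 2, against 2853 of 18022 with every library. This fit did not pair the libraries by replicate number. With the number as a block 10 members were called, and 3414 of the 18022 tested genes.

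Library totals lay between 72094634 and 73889969 counts in the si-eIF4E+M5 group and between 71044961 and 74246501 counts in the si-NC+M5 group. The targeted gene EIF4E had 1.47, 1.24 and 1.59 FPKM in the si-eIF4E+M5 libraries, against 3.46, 3.21 and 3.43 FPKM in the si-NC+M5 libraries (log2 fold change -1.25 ± 0.09, adjusted p = 7.2e-05 in edgeR). All 7 keratinocyte markers were present, with summed levels of 3265 to 3496 FPKM in the si-eIF4E+M5 libraries and 3241 to 3265 FPKM in the si-NC+M5 libraries. Each library is a bulk sample, so fewer cells of a kind and less RNA per cell cannot be told apart. With upper quartile scaling 1642 genes were called higher and 1266 lower, and with library totals alone 1598 and 1281, against 1340 and 1513 here.

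**Figure D1:**
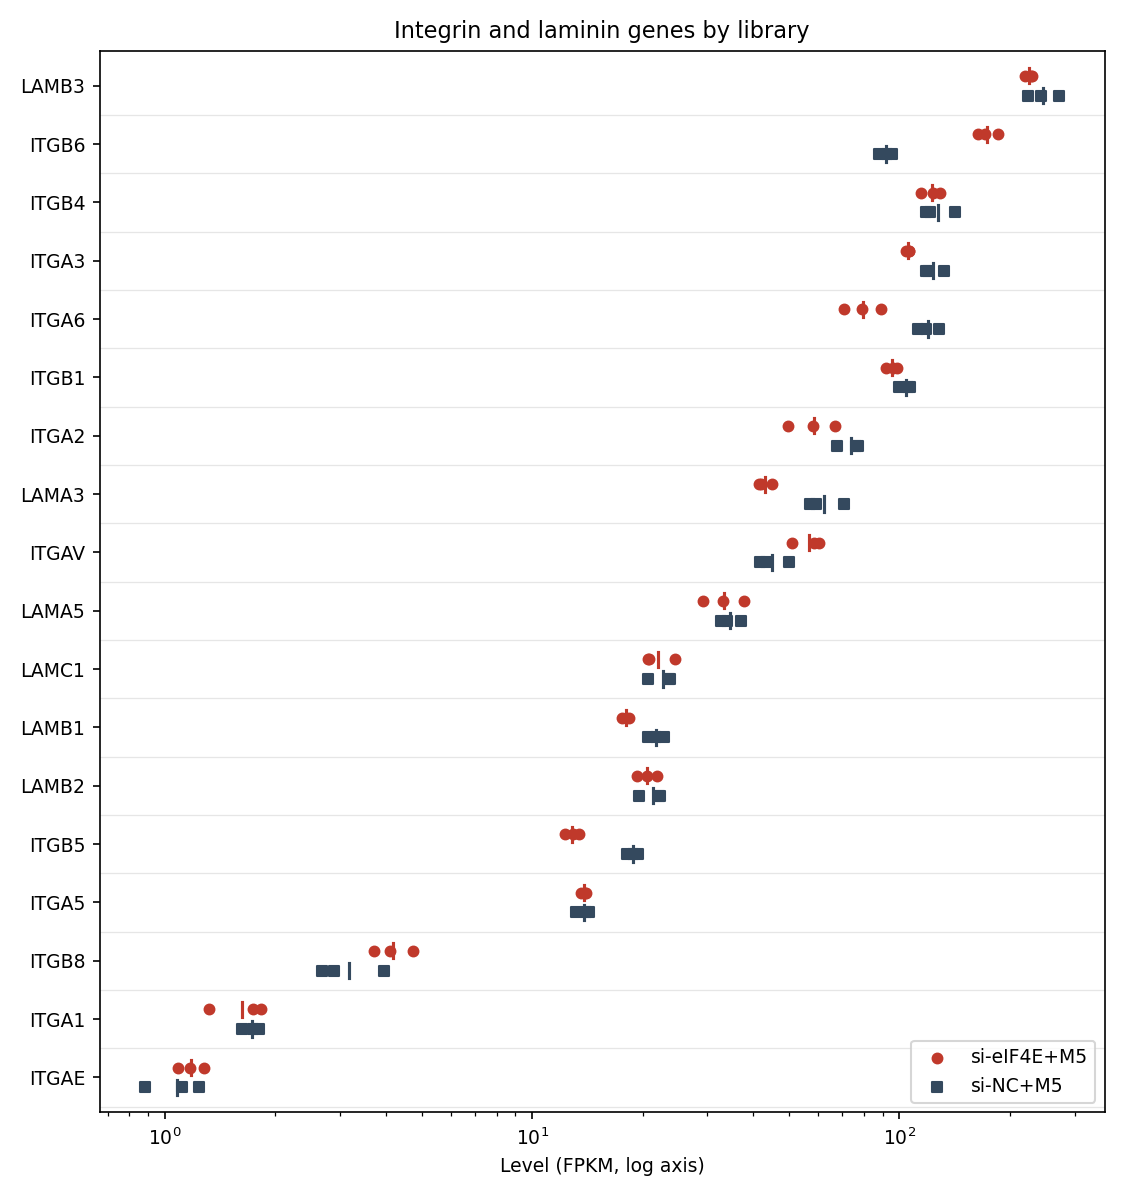
Level of each of the 18 members described that averaged at least 1 FPKM in either group, on a log axis of FPKM, with 1 point per library and a short line at each group mean (n = 3 each; circles si-eIF4E+M5, squares si-NC+M5). The points of ITGB6, ITGA6, ITGB5 and LAMA3 stand clear of those of the other group.

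Among chains of laminin-332, LAMA3 fell in si-eIF4E+M5 cells and LAMB3 did not pass. LAMA3 (ENSG00000053747, chromosome 18, 23689443 to 23956222, GRCh38), the α3 chain that integrins bind, had 42.1, 41.6 and 45.1 FPKM in the si-eIF4E+M5 libraries, against 57.0, 70.6 and 59.4 FPKM in the si-NC+M5 libraries. No library of one group reached the other. The means were 42.9 ± 1.91 FPKM in si-eIF4E+M5 cells and 62.3 ± 7.31 FPKM in si-NC+M5 cells (SD, n = 3 each), with a log2 fold change of -0.57 ± 0.09 (SE) and an adjusted p of 0.0022 in edgeR. LAMB3 (ENSG00000196878, chromosome 1, 209614870 to 209652425), the β3 chain, had 219.6, 228 and 230.4 FPKM in the si-eIF4E+M5 libraries, against 243, 272 and 224 FPKM in the si-NC+M5 libraries. These values overlapped (-0.15 ± 0.08, 95% confidence interval -0.32 to 0.02, adjusted p = 0.22 in edgeR). The level of LAMA3 over that of LAMB3 was 0.192, 0.182 and 0.196 in the si-eIF4E+M5 libraries, against 0.235, 0.260 and 0.265 in the si-NC+M5 libraries. These ratios did not overlap, and LAMA3 had the lower FPKM of the pair in every library. That order depends on the gene length used by the authors, and transcripts of LAMA3 with other lengths were not separated. This and the other ratios and shares were chosen with earlier results known, and are descriptions without a test.

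The RefSeq promoter table (GRCh38.p14, 250 bases before to 50 after each start) held 24 of the 34 members with 31 promoters. Of 4 motifs searched on both strands, AP-1 (TGANTCA) was found in 3 of the 31 member promoters, where 7.71% of all 35114 promoters hold it. CACGTG was found in 1 (7.26% of all), GGGTGTG in 3 (7.56%) and GGGCGG in 19, or 61.3%, against 45.0% of all. GGGCGG was present in 8 of 8 promoters of members that fell (5 genes), in 0 of 3 of members that rose (2 genes) and in 10 of 17 of members tested and not called (14 genes). Promoters of the same gene are not independent, and those of ITGA6 overlap, as do 2 of the 3 of LAMB3. The same GGGTGTG site and the same GGGCGG site of LAMB3 were counted in both of these. A GGGCGG site of ITGA6 was likewise counted in both of its promoters. ITGA3, which also fell, had no entry. The promoters with AP-1 letters were those of LAMA3, which fell, and of LAMB3 and ITGA5, which were not called. The LAMA3 and LAMB3 promoters are shown because both hold AP-1 letters, and were chosen after that was seen. The LAMB3 start shown lies 1051 bases inside the gene, and the other LAMB3 starts hold no AP-1 letters. The LAMA3 start lies 183577 bases inside the gene, so it is an internal one, and counts per gene do not separate its transcripts from transcripts that begin further upstream. Capitals mark TGANTCA, which begins at positions -125 and -69 from the start in LAMA3 and at -67 in LAMB3. The LAMA3 window is chr18:23872770-23873069 on the plus strand, and the LAMB3 window, for the furthest downstream of its 3 starts, is chr1:209651325-209651624 on the minus strand.
LAMA3: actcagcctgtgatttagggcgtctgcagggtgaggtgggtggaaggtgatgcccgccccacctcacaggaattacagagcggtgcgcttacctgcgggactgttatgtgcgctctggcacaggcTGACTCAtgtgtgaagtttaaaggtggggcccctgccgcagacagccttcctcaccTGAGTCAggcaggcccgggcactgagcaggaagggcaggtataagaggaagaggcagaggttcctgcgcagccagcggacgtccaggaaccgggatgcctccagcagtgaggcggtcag
LAMB3: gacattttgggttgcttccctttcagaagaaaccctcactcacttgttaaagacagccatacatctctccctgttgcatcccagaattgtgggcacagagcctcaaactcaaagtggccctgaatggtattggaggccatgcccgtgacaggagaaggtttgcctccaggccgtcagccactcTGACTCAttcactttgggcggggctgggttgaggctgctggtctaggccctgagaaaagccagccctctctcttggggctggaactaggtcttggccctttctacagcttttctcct

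The β1 chain LAMB1 also fell, while LAMA5, LAMB2 and LAMC1 did not pass. LAMB1 (ENSG00000091136, chromosome 7, 107923799 to 108003176), part of laminin-511 and its relatives, had 17.6, 18.02 and 18.4 FPKM in the si-eIF4E+M5 libraries, against 20.7, 22.9 and 21.8 FPKM in the si-NC+M5 libraries. No library of one group reached the other, and LAMB1 fell by 0.31 ± 0.06 on the log2 scale (adjusted p = 0.011 in edgeR). This call was lost without si-eIF4E+M5 library 1 or si-NC+M5 library 2 (adjusted p = 0.051 to 0.055 in edgeR). LAMA5, the α5 chain of the laminins found in most basement membranes, had 33.1, 29.3 and 37.7 FPKM in the si-eIF4E+M5 libraries, against 33.9, 37.2 and 32.6 FPKM in the si-NC+M5 libraries (-0.08 ± 0.09, 95% confidence interval -0.28 to 0.12, adjusted p = 0.63 in edgeR). The RNA of ADRM1, which overlaps LAMA5 on the other strand, reached 33.3% of the counts of LAMA5, and whether the counting used strand is not given in the sources used here. LAMB2 and LAMC1, the β2 and γ1 chains, had log2 fold changes of -0.08 ± 0.07 and -0.07 ± 0.09 (adjusted p = 0.51 and 0.65 in edgeR), and their libraries overlapped. The α3 chain over the α5 chain was 1.27, 1.42 and 1.2 in the si-eIF4E+M5 libraries, against 1.68, 1.9 and 1.82 in the si-NC+M5 libraries, without overlap.

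**Figure D2:**
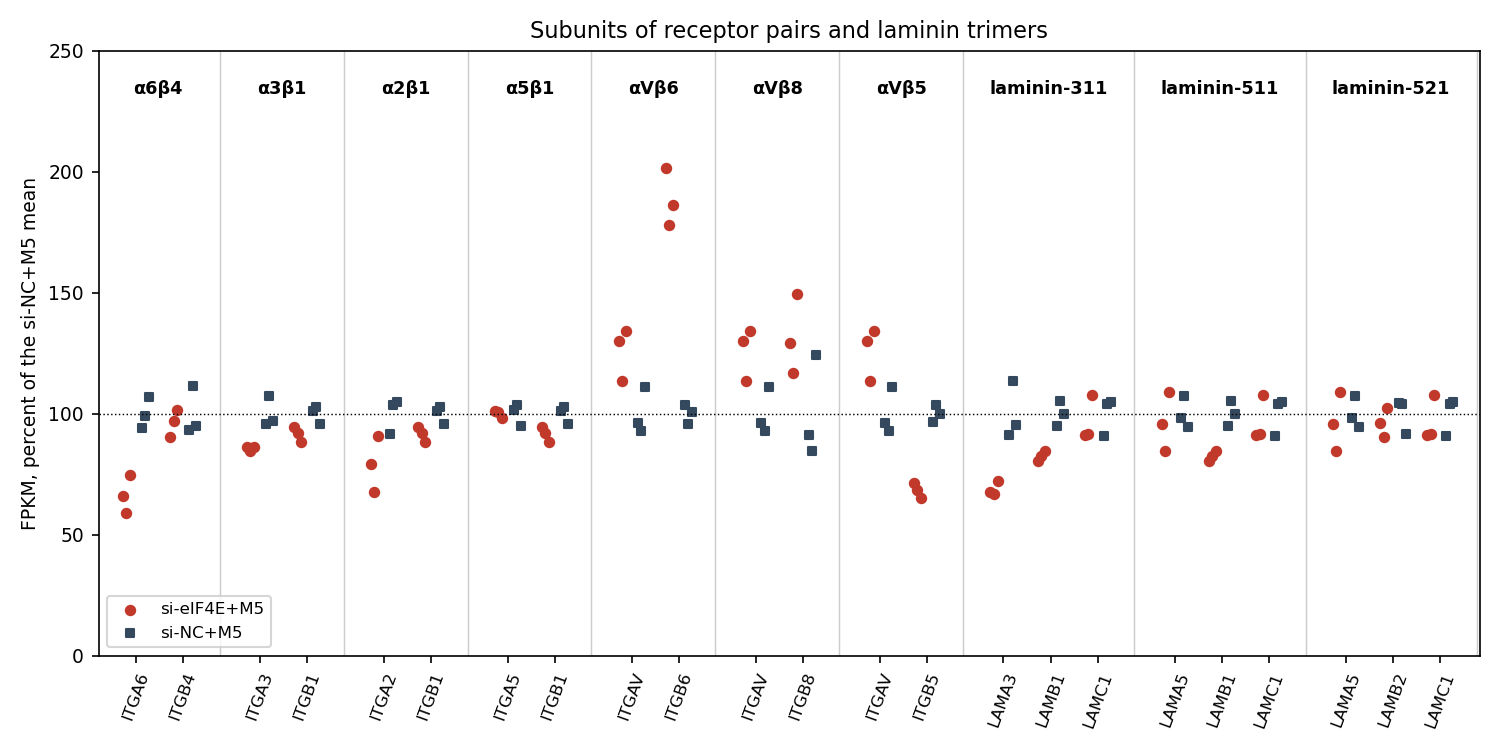
FPKM of each subunit in each library as a percent of its own si-NC+M5 mean, for 7 integrin pairs and 3 laminin trimers (circles si-eIF4E+M5, squares si-NC+M5, dotted line at 100). In αVβ6 and αVβ8 both subunits lie above the line in all 3 si-eIF4E+M5 libraries. In α3β1 and α2β1 both lie below it in all 3, as do LAMA3 and LAMB1 in laminin-311. ITGB8 and ITGB1 were not called.

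Among the laminin receptors the α subunits ITGA6 and ITGA3 fell. ITGA6 (ENSG00000091409, chromosome 2, 172427354 to 172506459), the α6 subunit of α6β4 and α6β1, had 79.0, 70.6 and 89.3 FPKM in the si-eIF4E+M5 libraries, against 112, 118 and 128 FPKM in the si-NC+M5 libraries. The lowest si-NC+M5 library exceeded the highest si-eIF4E+M5 library. The means were 79.6 ± 9.39 FPKM in si-eIF4E+M5 cells and 119 ± 7.87 FPKM in si-NC+M5 cells (SD, n = 3 each), with a log2 fold change of -0.61 ± 0.09 (SE) and an adjusted p of 0.0017 in edgeR. ITGB4 (ENSG00000132470, chromosome 17, 75721328 to 75757818), the β4 subunit that binds plectin in the hemidesmosome, had 115, 123 and 129 FPKM in the si-eIF4E+M5 libraries, against 119, 142 and 120.96 FPKM in the si-NC+M5 libraries. These overlapped (-0.08 ± 0.09, 95% confidence interval -0.27 to 0.11, adjusted p = 0.59 in edgeR). ITGA6 over ITGB4 was 0.689, 0.572 and 0.691 in the si-eIF4E+M5 libraries, against 0.947, 0.832 and 1.06 in the si-NC+M5 libraries, and the groups did not overlap. ITGA3 (ENSG00000005884, chromosome 17, 50055968 to 50090480), the α3 subunit that pairs with β1, had 106, 104 and 106 FPKM in the si-eIF4E+M5 libraries, against 118, 132 and 119.7 FPKM in the si-NC+M5 libraries, without overlap and with a log2 fold change of -0.25 ± 0.06 (SE) and an adjusted p of 0.019 in edgeR. This call was lost without si-eIF4E+M5 library 1, si-eIF4E+M5 library 3, si-NC+M5 library 2 or si-NC+M5 library 3 (adjusted p = 0.0502 to 0.072 in edgeR). ITGB1 (ENSG00000150093, chromosome 10, 32900318 to 33005792), the β1 subunit shared by most pairs here, had 98.3, 96.0 and 92.0 FPKM in the si-eIF4E+M5 libraries, against 106, 107 and 99.9 FPKM in the si-NC+M5 libraries. The groups did not overlap, but ITGB1 did not pass (-0.16 ± 0.05, 95% confidence interval -0.28 to -0.04, adjusted p = 0.079 in edgeR). With the replicate number as a block its adjusted p was 0.039, and in DESeq2 it was 0.038.

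The collagen receptor subunit ITGA2 (ENSG00000164171, chromosome 5, 52989340 to 53094779) fell. It had 58.4, 49.8 and 67.0 FPKM in the si-eIF4E+M5 libraries, against 67.8, 76.4 and 77.3 FPKM in the si-NC+M5 libraries. The groups were separated by a narrow gap, and the change was -0.37 ± 0.10 (adjusted p = 0.035 in edgeR). The call was lost without si-eIF4E+M5 library 1, si-eIF4E+M5 library 2, si-NC+M5 library 2 or si-NC+M5 library 3 (adjusted p = 0.11 to 0.13 in edgeR), and with no filter on low counts (adjusted p = 0.13), and in limma on log2(FPKM + 1) (0.080). ITGA1, the α1 subunit of another collagen receptor, was low (1.73, 1.32 and 1.82 FPKM in the si-eIF4E+M5 libraries, against 1.62, 1.74 and 1.81 FPKM in the si-NC+M5 libraries) and did not pass (adjusted p = 0.56 in edgeR). PELO, a gene on the same strand inside it, had 186.8% of its counts, so the ITGA1 values are uncertain.

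Among the RGD-binding receptors ITGB6 and ITGAV rose and ITGB5 fell. ITGB6 (ENSG00000115221, chromosome 2, 160099667 to 160200313), the β6 subunit found in epithelia, had 185, 164 and 171 FPKM in the si-eIF4E+M5 libraries, against 95.3, 88.0 and 92.6 FPKM in the si-NC+M5 libraries. The lowest si-eIF4E+M5 library was well above the highest si-NC+M5 library. The means were 173 ± 10.9 FPKM in si-eIF4E+M5 cells and 92.0 ± 3.65 FPKM in si-NC+M5 cells (SD, n = 3 each), a 1.85-fold rise with a log2 fold change of 0.89 ± 0.06 (SE) and an adjusted p of 3.6e-05 in edgeR. ITGAV (ENSG00000138448, chromosome 2, 186590056 to 186680901), the αV subunit that pairs with β1, β3, β5, β6 and β8, had 58.5, 51.1 and 60.5 FPKM in the si-eIF4E+M5 libraries, against 43.2, 41.8 and 50.01 FPKM in the si-NC+M5 libraries. The groups came close but did not overlap, with a log2 fold change of 0.30 ± 0.08 (SE) and an adjusted p of 0.035 in edgeR. The call of ITGAV was lost without si-eIF4E+M5 library 1, si-eIF4E+M5 library 3, si-NC+M5 library 1 or si-NC+M5 library 2 (adjusted p = 0.091 to 0.14 in edgeR), and with no filter on low counts (adjusted p = 0.12). ITGB5 (ENSG00000082781, chromosome 3, 124761948 to 124901418), the β5 subunit that binds vitronectin, had 13.4, 12.9 and 12.3 FPKM in the si-eIF4E+M5 libraries, against 18.2, 19.5 and 18.8 FPKM in the si-NC+M5 libraries. The groups stood far apart, with a log2 fold change of -0.58 ± 0.06 (SE) and an adjusted p of 0.00034 in edgeR. ITGB8, the β8 subunit of another receptor of latent TGF-β, had 4.10, 3.70 and 4.75 FPKM in the si-eIF4E+M5 libraries, against 2.89, 2.68 and 3.95 FPKM in the si-NC+M5 libraries. These overlapped in 1 library, and the change of 0.37 ± 0.14 did not pass (adjusted p = 0.11 in edgeR). With the replicate number as a block its adjusted p was 0.0050, in DESeq2 it was 0.020, and without si-NC+M5 library 3 it was 0.010 at a log2 fold change of 0.57. ITGA5, the α5 subunit of the fibronectin receptor, had 14.0, 14.0 and 13.6 FPKM in the si-eIF4E+M5 libraries, against 14.1, 14.3 and 13.2 FPKM in the si-NC+M5 libraries. Its values overlapped (-0.03 ± 0.06, 95% confidence interval -0.16 to 0.10, adjusted p = 0.81 in edgeR).

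The balance of the αV partners other than ITGB1 differed between the groups. With ITGB1 and all other β subunits in the sum, ITGB6 made up 42.4 ± 1.88% in si-eIF4E+M5 cells and 26.7 ± 1.89% in si-NC+M5 cells (SD, n = 3 each). Of the summed FPKM of ITGB3, ITGB5, ITGB6 and ITGB8, ITGB6 made up 91.3, 90.8 and 91.0% in the si-eIF4E+M5 libraries, against 81.9, 79.9 and 80.2% in the si-NC+M5 libraries. ITGB5 made up 6.6, 7.15 and 6.5% in the si-eIF4E+M5 libraries, against 15.6, 17.7 and 16.3% in the si-NC+M5 libraries. The level of ITGB6 over that of ITGB5 was 13.8, 12.7 and 14.0 in the si-eIF4E+M5 libraries, against 5.24, 4.52 and 4.93 in the si-NC+M5 libraries, and over that of ITGAV it was 3.17, 3.20 and 2.83 in the si-eIF4E+M5 libraries, against 2.20, 2.11 and 1.85 in the si-NC+M5 libraries; neither overlapped. Of all integrin α FPKM, ITGAV made up 17.8 ± 0.406% in si-eIF4E+M5 cells and 11.9 ± 0.979% in si-NC+M5 cells, and ITGA6 25.0 ± 1.12% in si-eIF4E+M5 cells and 31.5 ± 1.04% in si-NC+M5 cells (SD, n = 3 each). Integrin FPKM summed to 737, 694 and 751 in the si-eIF4E+M5 libraries, against 699.7, 746 and 729 in the si-NC+M5 libraries, and these sums overlapped.
The ITGB6 promoter is shown because ITGB6 had the larger rise of the 2 members called higher, and because it differs from most others in base composition. It holds none of the 4 motifs, and 31.7% of its bases are G or C, where the median of all promoters was 58.7%. Its window is chr2:160200223-160200522 on the minus strand, and it is printed in lower case throughout.
ITGB6: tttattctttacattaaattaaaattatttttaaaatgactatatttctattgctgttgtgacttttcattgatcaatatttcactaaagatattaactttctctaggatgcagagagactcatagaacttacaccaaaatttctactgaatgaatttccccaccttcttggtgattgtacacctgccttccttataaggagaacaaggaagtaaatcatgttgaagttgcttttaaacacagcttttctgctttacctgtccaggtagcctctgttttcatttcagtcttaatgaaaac

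**Figure D3:**
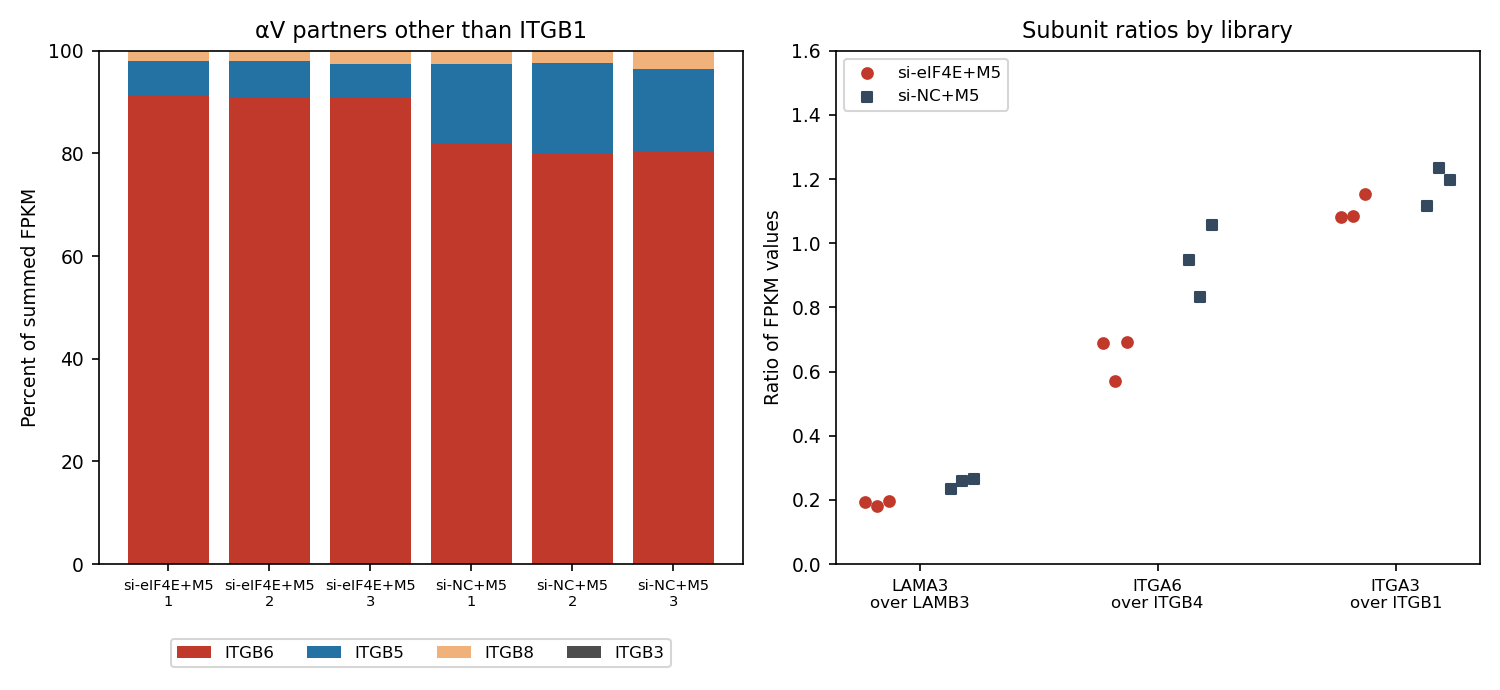
Left, the share of each αV partner other than ITGB1 in their summed FPKM, in percent, 1 bar per library. Right, the ratio of 2 subunits' FPKM in each library (circles si-eIF4E+M5, squares si-NC+M5). ITGB6 fills 91.3, 90.8 and 91.0% of the si-eIF4E+M5 bars and 81.9, 79.9 and 80.2% of the si-NC+M5 bars, and LAMA3 over LAMB3 is lower in every si-eIF4E+M5 library.

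Read by receptor, 10 of the 22 integrin pairs with both subunits in the table had both at an average of at least 1 FPKM: α1β1, α2β1, α3β1, α5β1, α6β1, α6β4, αVβ1, αVβ5, αVβ6 and αVβ8. Both subunits were called in the same direction in 1 of them, αVβ6, which was higher. Both were called in opposite directions in 1, αVβ5. A single subunit was called in 6 and none in 2. With the replicate block, and likewise in DESeq2, ITGB1 and ITGB8 were called as well. Both subunits were then higher in 2 pairs (αVβ6 and αVβ8), lower in 3 (α2β1, α3β1 and α6β1) and opposite in 2 (αVβ1 and αVβ5), with a single one called in 3 and none in 0. Without si-eIF4E+M5 library 1 or 3, without si-NC+M5 library 1 or 2, and with no filter on low counts, 0 pairs had both subunits called. Of 12 laminin trimers considered 4 had all chains at that level, laminin-311, laminin-321, laminin-511 and laminin-521. Of those, 1 had 2 called chains (laminin-311, both lower), 2 had 1 and 1 had none, and without si-eIF4E+M5 library 1 or si-NC+M5 library 2 none had 2. Pairs share subunits, so these counts are not independent, and messenger RNA levels do not measure the pairs themselves.

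**Figure D4:**
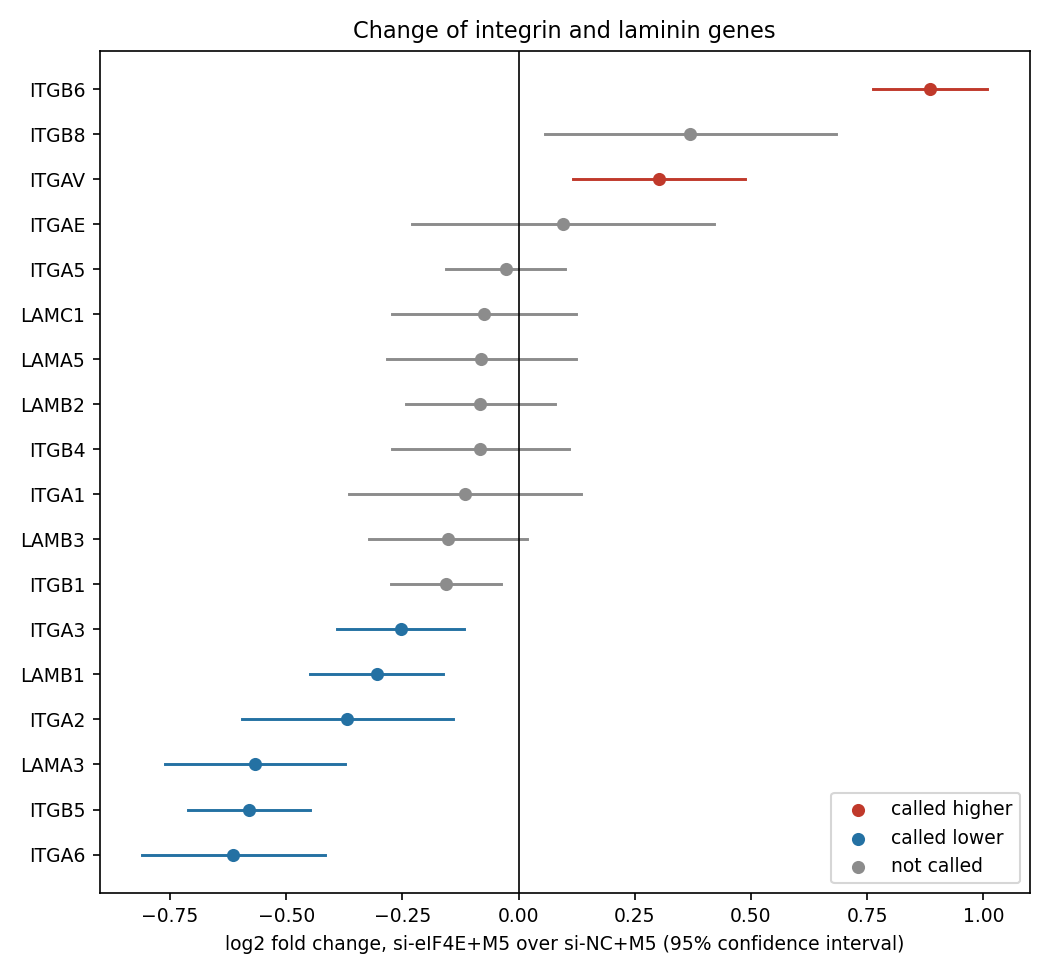
Log2 fold change (si-eIF4E+M5 relative to si-NC+M5) for the 18 members described that averaged at least 1 FPKM, with its 95% confidence interval from edgeR's quasi-likelihood fit (3 libraries a group). The 2 members called higher are ITGB6 and ITGAV, the 6 called lower run from ITGA6 at -0.61 to ITGA3 at -0.25, and 10 are not called.

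The other 16 members averaged under 1 FPKM in both groups. Of these, 5 did not pass the filter on low counts (ITGA8, ITGA9, ITGA11, LAMA4 and LAMC3), with at most 8 counts in any library. The other 11 were tested (ITGA4, ITGA7, ITGA10, ITGAL, ITGAM, ITGAX, ITGB2, ITGB3, ITGB7, LAMA1 and LAMA2) and none was called in edgeR, where 0 had an unadjusted p under 0.05 and 0 were called in DESeq2 or any other setting. Their highest level in any library was 0.812 FPKM, for ITGA4, in the si-eIF4E+M5 group, and the libraries overlapped. The leukocyte subunits ITGAL, ITGAM, ITGAX and ITGB2 are in this group. The leukocyte markers in the table were 3 of 8, and they summed to 0.741 to 1.38 FPKM in the si-eIF4E+M5 libraries and 0.42 to 0.727 FPKM in the si-NC+M5 libraries. CD3E was at 0 in 4 of 6 libraries. CD14 and CSF1R were above 0 in every library, with log2 fold changes of 0.71 and 0.77, and were not called (adjusted p = 0.21 and 0.26 in edgeR). ITGAE, the α subunit of a leukocyte receptor of E-cadherin, had 1.28, 1.17 and 1.09 FPKM in the si-eIF4E+M5 libraries, against 1.12, 0.885 and 1.24 FPKM in the si-NC+M5 libraries and did not pass (adjusted p = 0.74 in edgeR). HASPIN, on the other strand within ITGAE, had 133.7% of its counts.

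Partners of the members were measured as lists. Each share is set against the 15.8% of all tested genes that were called. Among all tested genes averaging at least 5 FPKM in either group, 26.2% were called. Of the tested focal adhesion genes 28 of 34 averaged at least 1 FPKM over all libraries, and of those for integrin activity and traffic 19 of 21. The lists were not compared at matched level, so a share above 15.8% is not read as an excess. Of 7 tested hemidesmosome partners KRT5 rose (605 ± 36.7 FPKM in si-eIF4E+M5 cells against 407 ± 29.9 FPKM in si-NC+M5 cells; 0.54 ± 0.07, adjusted p = 0.0013 in edgeR) and 0 fell, 14.3% called against 15.8% of all genes, where 2 had an unadjusted p under 0.05 in the lower direction. With the replicate block and in DESeq2 2 rose and 1 fell, as they did without si-NC+M5 library 3, 1 fell without si-NC+M5 library 1, and 2 rose among genes with a mean of at least 1 FPKM. KRT5 is a keratin that anchors in hemidesmosomes of basal cells. KRT14, another keratin on the list, was not called (736 ± 23.5 FPKM in si-eIF4E+M5 cells against 711 ± 13.5 FPKM in si-NC+M5 cells, 0.02 ± 0.06, adjusted p = 0.85 in edgeR). The other partners include plectin and COL17A1. Of 7 tested other laminin receptors 0 were called in edgeR, 1 had an unadjusted p under 0.05, and 1 rose in DESeq2, in limma, under the other scalings, with the replicate block and without si-eIF4E+M5 library 1. Of 34 tested focal adhesion adaptors and kinases 2 rose and 4 fell, 17.6% against 15.8% of all genes, with a median log2 fold change of -0.04. The rule on level named LIMS1, the adaptor PINCH1 (7.47 ± 0.204 FPKM in si-eIF4E+M5 cells against 6.17 ± 0.261 FPKM in si-NC+M5 cells; 0.25 ± 0.06, adjusted p = 0.024), and ACTN1 and PTK2. ACTN1, α-actinin, had 55.6 ± 0.948 FPKM in si-eIF4E+M5 cells against 65.8 ± 5.04 FPKM in si-NC+M5 cells (-0.27 ± 0.07, adjusted p = 0.022). PTK2, focal adhesion kinase, had 12.4 ± 0.292 FPKM in si-eIF4E+M5 cells against 14.1 ± 0.529 FPKM in si-NC+M5 cells (-0.21 ± 0.06, adjusted p = 0.041), each in edgeR. TLN2 (rose), FERMT2 and GIT2 (both fell), chosen after their values were seen, complete this count, and were below 5 FPKM. Without single libraries the count that rose was 1 or 2, with 1 without either si-eIF4E+M5 library 1 or 2 or si-NC+M5 library 1 or 2. The count that fell was 2 without si-eIF4E+M5 library 1 or 3, 1 without si-NC+M5 library 2, 3 without si-eIF4E+M5 library 2 or si-NC+M5 library 3 and 4 without si-NC+M5 library 1. With no filter on low counts 1 rose and 2 fell, and in DESeq2 4 rose and 5 fell. PTK2 lost its call without si-eIF4E+M5 library 1, si-eIF4E+M5 library 2, si-eIF4E+M5 library 3, si-NC+M5 library 2 or si-NC+M5 library 3 (adjusted p = 0.064 to 0.15 in edgeR) and under 3 other settings, LIMS1 without si-eIF4E+M5 library 1, si-eIF4E+M5 library 2, si-NC+M5 library 1 or si-NC+M5 library 2 (adjusted p = 0.061 to 0.084 in edgeR), ACTN1 without si-eIF4E+M5 library 1, si-eIF4E+M5 library 3 or si-NC+M5 library 2 (adjusted p = 0.063 to 0.078 in edgeR) and GIT2 without si-NC+M5 library 2 (adjusted p = 0.065 in edgeR).

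Of 21 tested genes for integrin activity and traffic 5 fell and 0 rose in edgeR, 23.8% against 15.8% of all genes, and 1 more had an unadjusted p under 0.05 in the higher direction. Without any single library other than si-eIF4E+M5 library 2 the count that fell was 3. PLAUR, the urokinase receptor that associates with integrins, had 5.93 ± 0.521 FPKM in si-eIF4E+M5 cells against 9.29 ± 0.862 FPKM in si-NC+M5 cells (-0.67 ± 0.09, adjusted p = 0.0014 in edgeR). SLC3A2, the CD98 heavy chain that binds β subunits, had 132 ± 2.77 FPKM in si-eIF4E+M5 cells against 199.8 ± 12.1 FPKM in si-NC+M5 cells (-0.63 ± 0.06, adjusted p = 0.00032 in edgeR). CAV1, caveolin, had 299 ± 2.41 FPKM in si-eIF4E+M5 cells against 347 ± 7.82 FPKM in si-NC+M5 cells (-0.24 ± 0.05, adjusted p = 0.010 in edgeR) and lost its call without si-NC+M5 library 3 (adjusted p = 0.065 in edgeR). RAP1B and SNX17, chosen after their values were seen, fell by 0.24 ± 0.06 and 0.21 ± 0.05 on the log2 scale in edgeR. RAP1B lost its call without si-eIF4E+M5 library 1, si-eIF4E+M5 library 3, si-NC+M5 library 1 or si-NC+M5 library 2 (adjusted p = 0.090 to 0.11 in edgeR) and SNX17 without each of the 6 libraries in turn (adjusted p = 0.06 to 0.091 in edgeR).

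Of 14 tested basement membrane partners of laminin 3 rose and 1 fell, 28.6% against 15.8% of all genes (5 rose with the replicate block, in DESeq2 and with library totals alone). COL4A5, a collagen IV chain, had 6.18 ± 0.270 FPKM in si-eIF4E+M5 cells against 4.36 ± 0.334 FPKM in si-NC+M5 cells (0.47 ± 0.08, adjusted p = 0.0031 in edgeR). TINAGL1, a matrix glycoprotein, had 132 ± 10.3 FPKM in si-eIF4E+M5 cells against 172 ± 7.30 FPKM in si-NC+M5 cells (-0.41 ± 0.06, adjusted p = 0.0020 in edgeR). COL4A6 and NID1, chosen after their values were seen, rose by 0.70 ± 0.11 and 2.22 ± 0.18 on the log2 scale in edgeR, and NID1 averaged 1.11 ± 0.113 FPKM in si-eIF4E+M5 cells against 0.234 ± 0.0359 FPKM in si-NC+M5 cells. Of 21 tested other integrin ligands 5 rose and 3 fell, 38.1% against 15.8% of all genes. Among the 8 of them with a mean of at least 1 FPKM over all libraries, 2 rose in the fit limited to such genes. THBS1, CCN1 and ICAM1 fell there too (adjusted p = 1.9e-05, 0.00080 and 0.0024 in edgeR). In that fit 2980 of all 11640 tested genes were called, 1542 higher and 1438 lower. EDIL3, an RGD protein that binds αV integrins, had 23.2 ± 1.57 FPKM in si-eIF4E+M5 cells against 13.1 ± 0.911 FPKM in si-NC+M5 cells (0.79 ± 0.07, adjusted p = 0.00024 in edgeR). THBS1, thrombospondin 1, had 17.5 ± 1.26 FPKM in si-eIF4E+M5 cells against 42.8 ± 2.85 FPKM in si-NC+M5 cells (-1.32 ± 0.07, adjusted p = 2.0e-05 in edgeR), CCN1 had 6.90 ± 0.828 FPKM in si-eIF4E+M5 cells against 11.3 ± 0.982 FPKM in si-NC+M5 cells (-0.74 ± 0.09, adjusted p = 0.00079 in edgeR) and ICAM1, the ligand of β2 integrins, 12.7 ± 0.509 FPKM in si-eIF4E+M5 cells against 17.96 ± 1.95 FPKM in si-NC+M5 cells (-0.53 ± 0.08, adjusted p = 0.0025 in edgeR). TNC, MFGE8, COL1A1 and COL3A1, chosen after their values were seen, rose in edgeR from levels below 5 FPKM, and MFGE8 lost its call without si-eIF4E+M5 library 1, si-eIF4E+M5 library 2, si-eIF4E+M5 library 3, si-NC+M5 library 1, si-NC+M5 library 2 or si-NC+M5 library 3 (adjusted p = 0.053 to 0.16 in edgeR) and with the replicate block (adjusted p = 0.060). COL1A1 and COL3A1 are also 2 of the fibroblast markers, of which 6 of 7 were in the table. Those 6 summed to 0.773 to 1.09 FPKM in the si-eIF4E+M5 libraries and 0.363 to 0.475 FPKM in the si-NC+M5 libraries, with LUM at 0 in 5 of 6 libraries, and their part in the result was not tested. Of 9 tested processing proteases PCSK6, chosen after its value was seen, fell (-0.36 ± 0.07, adjusted p = 0.0088 in edgeR) and 0 rose, 11.1% against 15.8% of all genes, and 2 had an unadjusted p under 0.05, both lower. DESeq2, the replicate block and the fit without si-eIF4E+M5 library 3 gave 2 lower, and limma on log2(FPKM + 1) or log2(FPKM + 0.1) gave 0.

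The smallest two-sided exact permutation p for 3 against 3 libraries is 0.1, and each of the 8 called members gave 0.1. Replicates of one group differed by more than counting error in every pair. Apart from ITGA2, ITGA3, ITGAV and LAMB1, the called members (ITGA6, ITGB5, ITGB6 and LAMA3) kept their direction and call in all 15 settings tried.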

How the data were processed

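RNA sequencing was measured in 6 libraries, 3 per group. The counts per gene were made by the authors, who trimmed reads with cutadapt 1.9 and checked them with FastQC, with GRCh38 as the genome build, per the submitters' processing notes. The deposited FPKM values are the same counts scaled by the authors to gene length and library size: the count to FPKM ratio was constant within 1% for 99.97% of the 9940 genes above 500 counts in every library. The aligner, the counter, the annotation and the use of strand were not given in the sources used here.

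Counts were tested with edgeR 4.0.16 in R 4.3.3 (filterByExpr with a minimum of 10 counts, TMM factors of 0.980 to 1.04, Benjamini-Hochberg over 18022 genes, threshold 0.05). The common biological coefficient of variation was 17.4%, and 5159 genes had an unadjusted p under 0.05. The members and lists, and the ratios, motifs and promoters shown, were chosen with earlier results of these data known. A member and a list gene are not reported here: both stayed in the fit, and the counts of members and of list genes leave them out. Levels between genes are compared in FPKM. Members were named with values if they averaged at least 1 FPKM in either group, and per list up to 3 called genes a direction with at least 5 FPKM. The genome positions are those of the deposited table. A count of 0 allows up to 3 counts in a library, and covers counting error only.

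Same-numbered libraries of the 2 groups deviated together from their group means (correlations over 10991 genes of 0.188, 0.107 and 0.327). This met the rule of a correlation over 0.1 in every pair, so the numbers may pair the samples. The margin was small: si-eIF4E+M5 library 1 and si-NC+M5 library 2, of unlike number, had 0.069. The labels themselves do not state a pairing. The main fit, which gave the calls and adjusted p-values unless another setting is named, had no term for the replicate number. The replicate block was run as an alternative only, and 10 members were called there, against 8 in the main fit. Whether ITGB1 and ITGB8 pass therefore depends on this choice.

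On simulated counts for this comparison with 18022 genes, 200 of them changed in each of 5 draws, the estimates were close to the simulated folds. The changed genes were drawn from all levels, and the data had far more called genes, 2853. The shares recovered therefore do not give the power for the members. With dispersions on the trend, the share recovered was 13.5% at a fold of 1.25, 56.4% at 1.5, 64.3% at 2 and 89.7% at 4, with a false discovery share of 4.63%. With gene-wise dispersions the shares were 6.91%, 46.5%, 62.2% and 79.3%, and the false discovery share was 11.7%, above the nominal 0.05. The trended setting was added after a first gene-wise run had exceeded the limit set for it.

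Alternatives were other scalings, no filter on low counts, DESeq2 1.42.0, limma 3.58.1 on log2(FPKM + 1) and log2(FPKM + 0.1), a mean FPKM of at least 1, the replicate block and each library left out; for the lists and the pairs they were added after seeing the data. Figures were drawn with matplotlib 3.10.9.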

Additional observations from a re-analysis of the deposited data

How the results depend on the processing

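Of the 8 called members, ITGA6, ITGB5, ITGB6 and LAMA3 kept direction and call in all 15 alternatives. The other 4 kept direction and lost the call in 7 (ITGA2), 5 (ITGA3), 5 (ITGAV) and 2 (LAMB1) of them. With no filter on low counts 1818 genes were called, 801 of them higher, and 5 members were called, 1 of them higher. The adjustment then ran over 29176 genes and the dispersions were fitted anew, and the cause was not tested. With 1 library left out, 1598 to 2283 genes were called, 724 to 1168 higher and 874 to 1191 lower, the lowest of each without si-NC+M5 library 2. The members called were then 4 to 7, with 1 to 3 higher and 3 to 6 lower, and 4 without si-eIF4E+M5 library 1 or si-NC+M5 library 2. The fit has fewer samples there. With the replicate block 10 members were called; it added ITGB1 and ITGB8, and changed no other member's call.

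Members that were not called changed sign as follows. ITGA5 had a log2 fold change of 0.0032 with upper quartile scaling, 0.0024 with library totals, 0.0020 in limma on log2(FPKM + 1) and 0.0021 on log2(FPKM + 0.1), and -0.056 to 0.0036 with 1 library left out. With 1 library left out ITGA1 ranged from -0.22 to 0.0060, ITGAE from -0.024 to 0.21 and ITGB4 from -0.14 to 0.011. The cause was not tested. Of the 11 tested members under 1 FPKM, 7 also changed sign in some alternative, 0 of them called, and they are left out of the single-gene values above, a choice made after the sign changes were seen. The 11 had 4 to 661 counts a library.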
